A study of Mus musculus with 4 samples.

Results

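The 44 genes described here encode the machinery that ties chromosomes to the spindle: the centromere, the kinetochore built on it, and the spindle checkpoint that reads its attachment. They were taken by name from the deposited table of 55335 rows and grouped by subcomplex. All 44 were found, each in 1 row, and all 44 were among the 13019 tested genes, whose mean over the libraries reached 1 CPM or more (reads in a gene per 1000000 reads in genes).

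RNA-seq of small cell numbers by SMART-Seq2 compared 2 sorted fractions of EpCAM-positive epithelium, taken from the gastric corpus of C57BL/6 mice aged 6 to 8 weeks. All mice carried Iqgap3-2A-tdTomato, a reporter in which the Iqgap3 locus also makes a red fluorescent protein. IQ3pos cells are the Iqgap3high fraction and IQ3neg cells the Iqgap3low/neg fraction. No mice without the reporter and no treatment entered the comparison. Each fraction had a library pooled from 3 mice (IQ3pos_1909A, IQ3neg_1909B) and a library pooled from 4 mice (IQ3pos_1910A, IQ3neg_1910B), and below the values of a fraction are given in that order. The labels do not say whether the libraries of 1 number came from the same mice. With 2 libraries a fraction, p-values measure the spread between these pools, part of which may be technical. Since these are bulk samples, fewer dividing cells and less RNA per cell cannot be told apart.

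As background, each centromere is marked by nucleosomes that hold CENP-A, a variant of histone H3. An inner layer of proteins, the constitutive centromere-associated network, sits on this chromatin throughout the cell cycle. In mitosis the outer kinetochore, made of the KNL1, MIS12 and NDC80 complexes, assembles on the inner layer and binds microtubules. Kinetochores without microtubules recruit the kinases and MAD and BUB proteins of the checkpoint, which hold back anaphase. Transcripts of many of these genes build up late in the cell cycle, so they serve as marks of dividing cells. In the corpus the dividing cells lie mainly in the isthmus of the gland.

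Kinetochore and checkpoint transcripts were more abundant in the IQ3pos libraries. The summed level of the 44 genes was 1897 and 4047 CPM in IQ3pos and 391.6 and 632 CPM in IQ3neg, which is 4.84 times as much in the 3-mouse pools and 6.41 times in the 4-mouse pools. Of the 44 genes, 38 (86.4%) had both IQ3pos values above both IQ3neg values, against 40.9% of all tested genes, and 0 had both below, against 14.2%. The median difference, IQ3pos minus IQ3neg on the log2(CPM + 1) scale, was 2.83, against 0.68 for all tested genes, so the members lay 2.15 above the whole table. On this scale the differences of genes with few reads come out too small. CPM are shares of a library, and 0.68 is the shift of the whole table on this scale. Scaling by TMM, edgeR's factor for composition, lowered that shift to 0.10, left 31 of the 44 (70.5%) higher in both IQ3pos libraries against 25.1% of tested genes, and gave a median 2.19 above all genes. After it 0 members had both values below, against 21.4%.

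No member passed on its own over all genes tested. In limma's test with Benjamini-Hochberg adjustment, 0 of the 44 were called higher and 0 lower, as for all genes (0.00% each), and the smallest adjusted p among members was 0.0659. At an unadjusted p under 0.05 in limma, 27 members (61.4%) were higher and 0 lower, against 18.2% and 4.98% of tested genes. That count was 11 without IQ3neg_1909B (9.16% of all genes), 12 without IQ3pos_1910A (13.7%) and 17 without IQ3neg_1910B (13.7%). The adjusted call depended on how low genes were handled. With only genes of a mean of at least 5 CPM, limma's test called 11 of 39 members higher, against 7.83% of genes (1.06% lower): Cenpa, Cenpe, Cenpf, Cenpk, Cenpw, Spc24, Spc25, Pmf1, Sgo1, Mis18a and Oip5. With a pseudocount of 5 it called Cenpa, Cenpe, Cenpf, Spc24 and Spc25, against 1.84% of genes (0.415% lower). With TMM-scaled CPM it called 0 members, against 0.0230% of genes higher and 0.192% lower; at an unadjusted p under 0.05, 22 members were higher and 0 lower, against 6.76% and 7.79%. On the recovered reads edgeR called 0 members, against 0.0654% of its 16831 genes higher and 0.226% lower; at an unadjusted p under 0.05, 21 members were higher and 0 lower, against 5.48% and 11.0%. DESeq2 called Cenpn higher and no other member, against 2.74% of its 38793 genes higher and 5.32% lower; at an unadjusted p under 0.05, Cenpn, Spc25 and Nsl1 were higher and 0 members lower, against 4.31% and 9.00%. A fit with the library number as a block called 17 members higher, against 9.34% of genes (0.960% lower), but the labels do not say that the numbers pair samples.

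**Figure D1:**
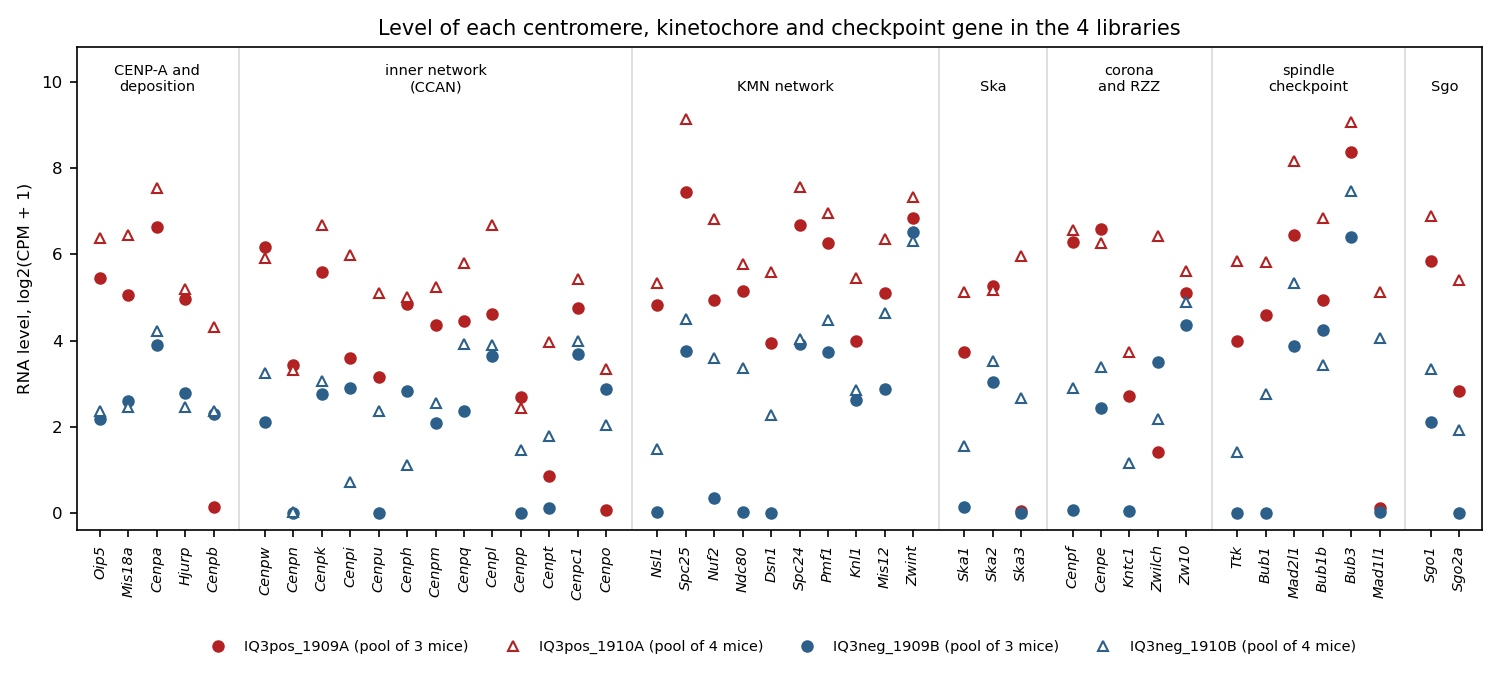
RNA level of each of the 44 genes on the log2(CPM + 1) axis, grouped by subcomplex and ordered within it by the difference between fractions; red marks are IQ3pos, blue marks IQ3neg, filled circles the 3-mouse pools and open triangles the 4-mouse pools. Red lies above blue for 38 genes; the filled red circles of Cenpb, Cenpo, Cenpt, Ska3, Zwilch and Mad1l1 fall within or below the blue range.

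Libraries held 90714929 (IQ3pos_1909A), 115016307 (IQ3neg_1909B), 279125309 (IQ3pos_1910A) and 418401262 (IQ3neg_1910B) reads in genes, and a read was worth 0.0110 CPM at most. A gene without a read in IQ3neg_1909B could stand at up to 0.0261 CPM, the limit that a count of 0 allows (3 reads, for counting error only, since PCR copies are not independent molecules). Iqgap3, whose reporter defined the sort, stood at 0.220 and 9.32 CPM in IQ3pos and 0.0435 and 0.452 CPM in IQ3neg, so it was low in IQ3pos_1909A.

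Epithelial markers were present in all libraries, with Epcam at 473 and 517 CPM in IQ3pos and 205 and 266 CPM in IQ3neg. Several lists of gastric cell markers moved with the fractions, beside 40.9% of all tested genes higher in both IQ3pos libraries and 14.2% lower. All 5 pit markers and all 5 parietal markers were higher in both IQ3pos libraries, and 7 of 7 chief and 6 of 6 enteroendocrine markers were lower in both. Their summed levels in IQ3pos and IQ3neg were 11427 to 11440 against 1287 to 1736 CPM (pit), 7221 to 7606 against 773 to 1365 CPM (parietal), 19531 to 50944 against 404304 to 415787 CPM (chief) and 184 to 372 against 10349 to 16393 CPM (enteroendocrine). Most of the chief sum in IQ3neg was Clps, at 340995 and 277067 CPM, against 31717 and 7144 CPM in IQ3pos. Mucous neck and tuft lists were mixed. Of 3 neck markers, Tff2 alone was higher in both IQ3pos libraries, and the list summed to 5175 to 8646 against 1181 to 2168 CPM. Of 5 tuft markers, 1 was lower in both, and the list summed to 554 and 130.0 against 369 and 1112 CPM. None of these markers was at 0 in every library, and their part in the kinetochore result was not tested. The 6 leukocyte markers summed to 49.1 to 267 CPM in IQ3pos and 72.7 to 372 CPM in IQ3neg. Most of that sum was Lyz2, at 211 and 43.9 CPM in IQ3pos and 298 and 53.2 CPM in IQ3neg, while Ptprc stood at 22.8 and 0.0824 against 38.8 and 14.5 CPM and Cd3e was under 0.1 CPM in all libraries. Of 4 endothelial markers, Pecam1 and Cdh5 were under 0.1 CPM in all libraries, and Tek stood at 1.03 and 0.0215 against 4.25 and 12.1 CPM.

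The promoters of the genes at both ends of the list are shown because most members were higher in IQ3pos and they differ in the short elements near their starts. Textbook regulators of late cell cycle genes act through the CHR element (written here as TTTGAA or TTCGAA) and through the CCAAT box, which NF-Y binds. E2F factors act through boxes such as TTCCCGC or TTGGCGC. RefSeq windows on GRCm38.p6, from 250 bases before to 50 bases after a start, were at hand for 40 of the 44 members (45 windows) and were searched on both strands; TTCGAA reads the same on both, and the motifs searched share no letters where they matched in the windows shown. In the windows below, capitals mark the matches. Cenpf, Ttk and Spc25 had the largest differences between fractions, on the log2(CPM + 1) scale, among members with a single window. They lie at chr1:189688037-189688336 on the minus strand, chr9:83834439-83834738 on the plus strand and chr2:69206164-69206463 on the minus strand.
Cenpf: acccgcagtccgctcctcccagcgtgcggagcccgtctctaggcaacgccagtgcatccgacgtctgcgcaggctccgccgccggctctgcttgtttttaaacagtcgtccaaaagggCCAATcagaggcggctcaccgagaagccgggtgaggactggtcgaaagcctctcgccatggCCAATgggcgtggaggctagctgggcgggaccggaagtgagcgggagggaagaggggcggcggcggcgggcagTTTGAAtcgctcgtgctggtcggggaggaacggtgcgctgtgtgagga
Ttk: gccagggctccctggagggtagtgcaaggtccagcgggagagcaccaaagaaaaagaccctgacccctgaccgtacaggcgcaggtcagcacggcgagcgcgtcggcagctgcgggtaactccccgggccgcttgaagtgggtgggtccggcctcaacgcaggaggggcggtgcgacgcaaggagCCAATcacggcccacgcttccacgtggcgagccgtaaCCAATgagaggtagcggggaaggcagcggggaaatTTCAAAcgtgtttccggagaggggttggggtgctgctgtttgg
Spc25: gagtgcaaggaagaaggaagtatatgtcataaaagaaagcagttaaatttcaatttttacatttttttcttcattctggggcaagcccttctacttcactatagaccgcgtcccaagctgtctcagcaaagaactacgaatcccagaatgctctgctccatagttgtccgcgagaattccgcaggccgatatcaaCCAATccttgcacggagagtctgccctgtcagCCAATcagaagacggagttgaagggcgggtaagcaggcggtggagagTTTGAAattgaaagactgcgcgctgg
Each of these 3 windows holds 2 CCAAT boxes followed by a CHR just past the start. In Cenpf the boxes begin 132 and 71 bases before the start and the CHR 2 bases after it. In Ttk they begin 65 and 28 bases before and 7 bases after it, the CHR lying on the other strand (TTCAAA as printed), and in Spc25 55 and 23 bases before and 24 bases after it.

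The 3 smallest differences among members with a single window belonged to Zwint, Cenpb and Cenpo. Their windows lie at chr10:72654596-72654895 on the plus strand, chr2:131180018-131180317 on the minus strand and chr12:4233916-4234215 on the minus strand.
Zwint: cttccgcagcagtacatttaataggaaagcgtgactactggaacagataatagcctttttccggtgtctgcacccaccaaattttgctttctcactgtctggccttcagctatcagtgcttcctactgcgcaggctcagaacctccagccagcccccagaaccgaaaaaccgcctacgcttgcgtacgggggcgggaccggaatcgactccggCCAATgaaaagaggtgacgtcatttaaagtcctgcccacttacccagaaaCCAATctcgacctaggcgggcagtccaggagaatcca
Cenpb: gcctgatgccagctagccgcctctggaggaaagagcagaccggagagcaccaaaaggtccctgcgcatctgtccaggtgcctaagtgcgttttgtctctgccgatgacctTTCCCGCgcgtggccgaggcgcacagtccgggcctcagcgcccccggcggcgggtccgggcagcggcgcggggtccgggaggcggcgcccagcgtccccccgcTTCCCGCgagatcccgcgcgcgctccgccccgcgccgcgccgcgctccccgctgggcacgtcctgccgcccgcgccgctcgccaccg
Cenpo: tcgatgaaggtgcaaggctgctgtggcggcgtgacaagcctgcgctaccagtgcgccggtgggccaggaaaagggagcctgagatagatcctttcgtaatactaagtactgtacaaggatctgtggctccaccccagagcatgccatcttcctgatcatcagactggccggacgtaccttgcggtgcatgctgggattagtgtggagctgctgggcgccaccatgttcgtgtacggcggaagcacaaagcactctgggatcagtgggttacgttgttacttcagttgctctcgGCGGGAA
None of these 3 windows holds TTTGAA or TTCGAA on either strand. Zwint has 2 CCAAT boxes, Cenpb has 2 matches to TTCCCGC, and Cenpo has 1 match to it on the other strand, 43 bases past the start. The low rank of Cenpb and Cenpo rests on IQ3pos_1909A, where they had 10 and 5 reads. In the 4-mouse pools they differed by 1.95 and 1.31. The smallest difference in those pools was that of Zw10, 0.71, and its window holds TTTGAA 148 bases before the start.

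Over all 40 members, 21 (52.5%) had a CHR match in a window and 27 (67.5%) a CCAAT box, against 17.1% and 43.4% of the 9554 tested genes with a window and 21.7% and 41.1% of all 27025 genes with a window. An E2F box was found for 12 members (30.0%), against 14.3% of tested genes. A CHR that begins within 50 bases of the start or past it was found for 16 of the 40 members, against 4.52% of tested genes. The 13 members with both such a CHR and a CCAAT box had a median difference of 3.37 between fractions (1.78 to 4.94). The 14 with a CCAAT box and no such CHR had a median of 2.50 (0.67 to 3.50), the 3 with such a CHR and no CCAAT box (Ska3, Knl1 and Ndc80) had 1.98 (1.67 to 3.76), and the 10 with neither had 1.65 (−0.75 to 3.91). The ranges overlapped widely: Nuf2, at 3.91, had no match to any motif searched, and Bub3, at 1.78, had both. The grouping by distance was chosen after seeing the data. With a CHR anywhere in a window the median was 3.02 (21 members), and without one 1.98 (19 members). For an E2F box the order was the other way, 2.21 with it (12 members) and 2.83 without (28 members). Mis18a and Zw10, counted among the 10 with neither, have a CHR farther before the start. These shares describe letters in a window, not binding, and a window without a match says only that these letters are not in it.

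**Figure D2:**
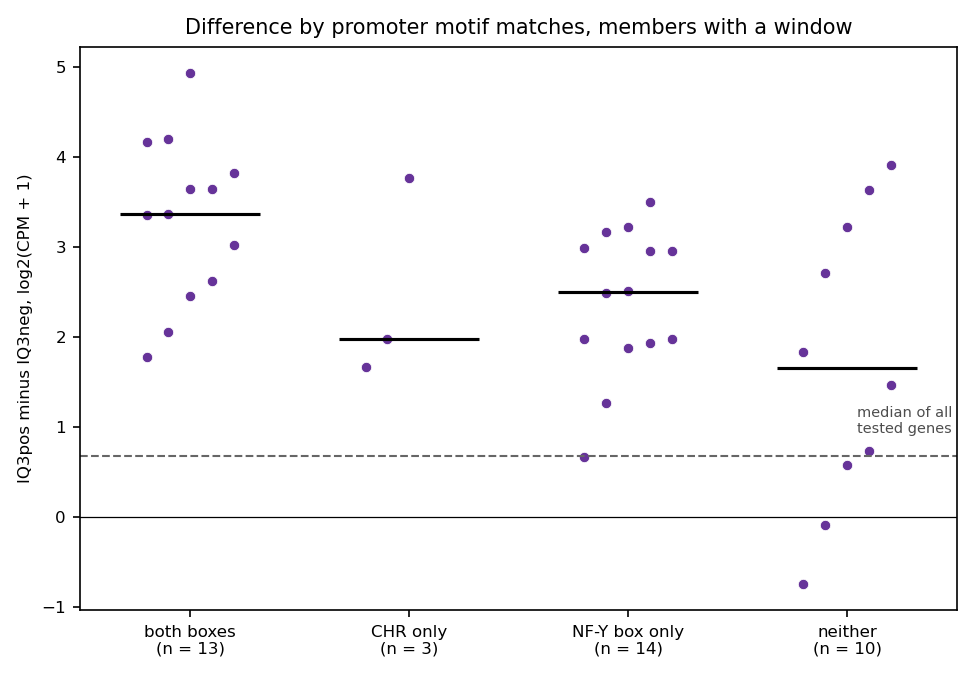
Difference between fractions, IQ3pos minus IQ3neg in log2(CPM + 1), for the 40 members with a promoter window, by the elements found in it; each point is a gene, solid bars are medians, the dashed line is the median of all tested genes, and CHR means a match within 50 bases of the start or past it. The 13 genes with both elements have a median of 3.37 the 14 with an NF-Y box only 2.50, the 3 with a CHR only 1.98 and the 10 with neither 1.65, with overlapping ranges.

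CENP-A and the factors that load it onto the centromere were higher in IQ3pos, with a CENP-B exception. Cenpa, the histone variant itself, stood at 97.3 and 185 CPM in IQ3pos and 13.9 and 17.6 CPM in IQ3neg. The difference was 3.02 on the log2 scale (SE 0.49, limma adjusted p = 0.0659). Hjurp, the chaperone that carries CENP-A to the centromere, stood at 30.3 and 35.4 against 5.89 and 4.51 CPM. Its IQ3pos values were 5.13 and 7.85 times those of IQ3neg in the 3-mouse and 4-mouse pools. Mis18a and Oip5 encode the MIS18 subunits that license CENP-A loading. Oip5 stood at 42.6 and 81.7 against 3.52 and 4.14 CPM and had the largest difference of the group, 3.64 (SE 0.66, limma adjusted p = 0.0666). Of the exon bases of Oip5, 9.67% overlap Nusap1 on the other strand, and without strand the reads of these bases cannot be told apart. Nusap1 stood at 87.7 and 260 CPM in IQ3pos and 0.0869 and 5.10 CPM in IQ3neg. Mis18a stood at 32.1 and 85.6 against 5.04 and 4.48 CPM. All 4 kept the fractions apart with no overlap, also after TMM scaling. Cenpb, which encodes a protein that binds a sequence box in centromeric satellite DNA, stood at 0.1102 and 18.9 CPM in IQ3pos and 3.88 and 4.14 CPM in IQ3neg. Its IQ3pos libraries lay on either side of IQ3neg, and the fitted difference of −0.09 (SE 1.55) became 1.99 without IQ3pos_1909A, where 10 reads were found.

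In the inner network, 11 of 13 genes were higher in both IQ3pos libraries (8 after TMM scaling), with a median difference of 2.49. Cenpc1, the scaffold that joins CENP-A nucleosomes to the outer kinetochore, differed little for this group: 25.9 and 42.1 against 11.9 and 14.8 CPM, a log2 difference of 1.26 (SE 0.57), or 0.58 above the median of all genes. The CENP-H, CENP-I, CENP-K and CENP-M subunits form a block that binds CENP-C. Cenpk was the most abundant inner network gene per kilobase of transcript in IQ3pos (mean of 61.1 CPM per kilobase). That rank depends on the transcript lengths used, 1217 bases for Cenpk and 4143 for Cenpw. Cenpk stood at 47.2 and 102 against 5.80 and 7.31 CPM. Its log2 difference was 3.23 (SE 0.62, limma adjusted p = 0.0703). Cenph stood at 27.6 and 31.4 against 6.14 and 1.17 CPM, and Cenpm at 19.4 and 37.1 against 3.23 and 4.84 CPM. Cenpi was uneven between pools, at 11.1 and 62.1 against 6.42 and 0.641 CPM, so its ratio was 1.74 in the 3-mouse pools and 96.9 in the 4-mouse pools. After TMM scaling its fractions overlapped.

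CENP-L and CENP-N form a pair within the inner network. Cenpn stood at 9.71 and 8.90 CPM in IQ3pos, on 881 and 2484 reads, and was nearly absent from IQ3neg, with 0 and 5 reads. Cenpl was present in all libraries, at 23.5 and 101 against 11.4 and 14.0 CPM, and its fractions overlapped after TMM scaling. The log2 difference of Cenpn was 3.36 (SE 0.91, limma adjusted p = 0.116) and that of Cenpl 1.88 (SE 0.79). Whether these differences differ from each other was not tested.

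CENP-O, CENP-P, CENP-Q and CENP-U belong to a block that helps recruit the kinase PLK1. Cenpu stood at 7.96 and 33.6 CPM in IQ3pos against no read and 4.16 CPM in IQ3neg, and Cenpp at 5.50 and 4.41 CPM against no read and 1.77 CPM. On the other strand, Ippk overlaps 12.3% of the exon bases of Cenpp, and Primpol 26.7% of those of Cenpu. Ippk stood at 52.2 and 90.8 against 3.84 and 26.7 CPM, and Primpol at 0.0551 and 1.99 against 0.496 and 5.05 CPM. Without strand the reads of shared bases cannot be told apart. Cenpq stood at 20.7 and 54.6 against 4.15 and 14.2 CPM, and its fractions overlapped after TMM scaling. Cenpo went the other way in the 3-mouse pools, at 0.0551 (5 reads) and 9.19 CPM in IQ3pos against 6.40 and 3.11 CPM in IQ3neg. Its fitted difference of −0.75 (SE 1.37), the lowest of the 44, became 0.89 without IQ3pos_1909A. CENP-T and CENP-W form a histone-like pair that recruits the NDC80 complex. Cenpw differed by 3.37 on the log2 scale (SE 0.65, limma adjusted p = 0.0706), next to that of Cenpn, which was the larger after TMM scaling and in edgeR and DESeq2. Cenpw stood at 70.7 and 59.1 against 3.30 and 8.43 CPM. Cenpt stood at 0.827 and 14.7 against 0.0869 and 2.45 CPM: IQ3pos was higher in each pair of pools, but IQ3pos_1909A lay below IQ3neg_1910B, and the fitted difference of 1.47 became −0.08 without IQ3pos_1910A.

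**Figure D3:**
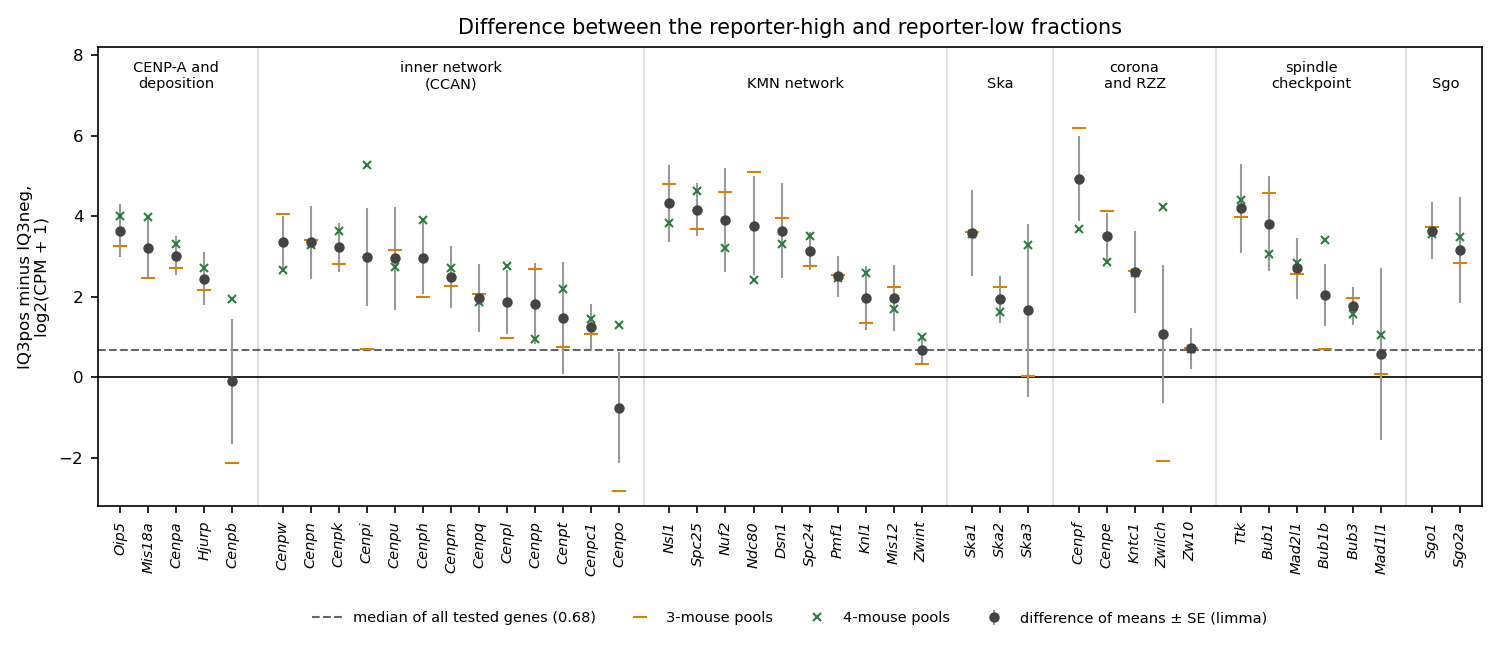
Difference between fractions on the log2(CPM + 1) scale for each gene, grouped by subcomplex; dark points with grey bars are limma's difference of means with its SE, orange bars the 3-mouse pools and green crosses the 4-mouse pools, and the dashed line is the median of all tested genes, 0.68. Most genes lie above the line in both pools; Cenpb, Cenpo and Zwilch are negative in the 3-mouse pools and positive in the 4-mouse pools.

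In the KMN network, the microtubule-binding core of the outer kinetochore, all 10 genes were higher in both IQ3pos libraries (8 after TMM scaling). Their median difference was 3.39. The 2 shugoshins were also higher in both (2 after TMM scaling), with a median of 3.40. NDC80 and NUF2 form the end of the NDC80 complex that holds the microtubule, and SPC24 and SPC25 the end that docks on the kinetochore. Spc25 (chromosome 2, 69193895 to 69206194 on GRCm38) was the most abundant member per kilobase in IQ3pos, with a mean of 240.0 CPM per kilobase against 11.1 in IQ3neg. It stood at 172 and 561 CPM in IQ3pos and 12.4 and 21.6 CPM in IQ3neg, which is 13.9 and 26.0 times as much. Its log2 difference was 4.16 (SE 0.65, limma adjusted p = 0.0659, edgeR adjusted p = 0.0964). Spc24 stood at 102 and 187 against 14.1 and 15.5 CPM, a difference of 3.14 (SE 0.47).

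The other end of the same complex was almost missing from IQ3neg_1909B. Ndc80 stood at 34.4 and 53.5 CPM in IQ3pos, and in IQ3neg at 0.0261 CPM (3 reads) and 9.23 CPM. Nuf2 stood at 29.9 and 112 against 0.278 (32 reads) and 11.1 CPM. Within the complex, the highest level per kilobase was 9.08 times the lowest in IQ3pos_1909A, 15.1 times in IQ3pos_1910A and 3.37 times in IQ3neg_1910B, but 872 times in IQ3neg_1909B. Fractions did not overlap for any of the 4 subunits, also after TMM scaling.

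The MIS12 complex links inner and outer layers. Pmf1 was its most abundant subunit per kilobase in each library, at 75.7 and 123 against 12.2 and 21.2 CPM, with a log2 difference of 2.51 (SE of 0.51; limma's adjusted p = 0.0749). Nsl1 (chromosome 1, 191063012 to 191086474 on GRCm38) had the largest difference of the network, 4.32 (SE 0.96, limma adjusted p = 0.0832), at 27.3 and 39.2 CPM against 0.0174 CPM (2 reads) and 1.81 CPM. Dsn1 stood at 14.4 and 47.2 CPM against no read and 3.82 CPM. Mis12 itself stood at 33.4 and 80.7 against 6.31 and 24.0 CPM, and its fractions overlapped after TMM scaling. Knl1, the scaffold on which checkpoint proteins gather, stood at 14.9 and 42.7 against 5.19 and 6.24 CPM.

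Zwint, which encodes the KNL1 partner that helps recruit the RZZ complex, had the smallest difference of the network. It stood at 114 and 158 CPM in IQ3pos and 90.8 and 77.8 CPM in IQ3neg, a log2 difference of 0.67 (SE 0.35), at the median of all genes. After TMM scaling the difference was −0.03 and the fractions overlapped. Zwint and Bub3 made up 44.3% and 40.3% of the summed level of the 44 genes in IQ3neg and 23.3% and 17.0% in IQ3pos. For the other 42 genes together, IQ3pos held 6.67 times the IQ3neg level in the 3-mouse pools and 8.90 times in the 4-mouse pools.

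The SKA complex helps kinetochores hold on to shrinking microtubules. Whether the differences of its 3 genes differ from each other was not tested. Ska1 stood at 12.3 and 33.9 CPM in IQ3pos and 0.0956 (11 reads) and 1.94 CPM in IQ3neg, with a log2 difference of 3.58 (SE 1.07). Ska2 was closer between fractions and alike within them, at 37.5 and 34.8 against 7.16 and 10.5 CPM, a difference of 1.94 (SE 0.59). Ska3 was found almost only in the 4-mouse pools: 0.0331 CPM (3 reads) and 60.8 CPM in IQ3pos, and no read and 5.33 CPM in IQ3neg. Its fitted difference of 1.67 has an SE of 2.14 and became −1.28 without IQ3pos_1910A.

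Among proteins of the fibrous corona, which forms on kinetochores before microtubules attach, Cenpf had the largest difference of all 44 genes on the log2(CPM + 1) scale; in edgeR and DESeq2 the fitted differences of Cenpn, Ttk and Nsl1 were larger. Cenpf encodes a large coiled-coil protein that peaks before mitosis. It stood at 76.3 and 93.4 CPM in IQ3pos and 0.0522 (6 reads) and 6.41 CPM in IQ3neg, with a log2 difference of 4.94 (SE of 1.05; limma's adjusted p = 0.0779). Cenpe, a kinesin that moves chromosomes to the spindle equator, stood at 94.9 and 75.4 against 4.45 and 9.50 CPM, with a log2 difference of 3.50 (SE of 0.58; limma's adjusted p = 0.0659). Both genes differed more in the 3-mouse pools than in the 4-mouse pools (6.20 and 3.67 for Cenpf, 4.14 and 2.86 for Cenpe).

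The RZZ complex recruits MAD1 and MAD2 and the dynein motor to the corona. All 3 of its genes were higher in IQ3pos in the 4-mouse pools, and Zwilch alone was lower in the 3-mouse pools. Whether the 3 genes differ from each other was not tested. Kntc1, encoding ROD, stood at 5.54 and 12.4 against 0.0435 (5 reads) and 1.23 CPM. Zw10, which also serves in vesicle traffic between ER and Golgi, stood at 33.1 and 47.6 against 19.4 and 28.6 CPM, a log2 difference of 0.73 (SE 0.51), and its fractions overlapped after TMM scaling. Zwilch stood at 1.68 and 84.7 CPM in IQ3pos and 10.3 and 3.55 CPM in IQ3neg, 0.163 times the IQ3neg level in the 3-mouse pools and 23.8 times in the 4-mouse pools. Its fitted difference of 1.08 (SE 1.71) became −1.42 without IQ3pos_1910A.

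Of the 6 checkpoint genes, 5 were higher in both IQ3pos libraries (4 after TMM scaling), with a median difference of 2.38. Ttk and Bub1, kinases at the top of the checkpoint, had the largest fitted differences of the group, each with no read in IQ3neg_1909B. In the 4-mouse pools Bub1b, at 3.40 on the log2 scale, lay above Bub1, at 3.06. Whether these genes differ from each other was not tested. Ttk, encoding MPS1, stood at 14.9 and 56.0 CPM against no read and 1.69 CPM, with a log2 difference of 4.20 (SE of 1.10; limma's adjusted p = 0.111). Bub1, which marks centromeric histone H2A and brings other checkpoint proteins in, stood at 23.0 and 55.7 CPM against no read and 5.82 CPM, a difference of 3.82 (SE 1.18). Bub1b, encoding the BUBR1 part of the mitotic checkpoint complex, stood at 29.7 and 113 against 17.9 and 9.79 CPM, with ratios of 1.66 and 11.5 in the 3-mouse and 4-mouse pools. Its fractions overlapped after TMM scaling.

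Mad2l1, encoding the MAD2 protein that captures CDC20, stood at 86.6 and 285 against 13.7 and 39.1 CPM, a log2 difference of 2.71 (SE 0.76). The ratios were alike in the 2 pairs of pools, 6.34 and 7.28. Bub3, the partner of BUB1 and BUBR1 that also acts outside mitosis, was the most abundant checkpoint gene per kilobase in each library. That rank depends on the transcript lengths used, 3414 bases for Bub3 and 7557 for Mad2l1. Bub3 stood at 328 and 530 against 82.8 and 177 CPM, with a log2 difference of 1.78 (SE of 0.47, limma's adjusted p = 0.112). Mad1l1, which holds MAD2 at the kinetochore, was found in the 4-mouse pools in the main: 0.0882 CPM (8 reads) and 33.7 CPM in IQ3pos and 0.0174 CPM (2 reads) and 15.7 CPM in IQ3neg. Its fitted difference of 0.58 (SE 2.13) became −1.92 without IQ3pos_1910A and −1.44 without IQ3neg_1909B.

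The shugoshins guard cohesion at the centromere until anaphase. Sgo1 stood at 56.5 and 118 CPM in IQ3pos and 3.34 and 9.07 CPM in IQ3neg, with a log2 difference of 3.65 (SE of 0.70; limma's adjusted p = 0.0713), with ratios of 16.9 and 13.0. Sgo2a stood at 6.12 and 41.6 CPM against no read and 2.78 CPM, a difference of 3.16 (SE 1.31). Its paralog Sgo2b had 11 and 18 reads in IQ3pos and 0 and 6 in IQ3neg. Of the exon bases of Sgo2a, 35.0% overlap Kctd18 on the other strand, and without strand the reads of the shared bases cannot be told apart. Kctd18 stood at 3.85 and 0.129 CPM in IQ3pos and 0.0348 and 3.39 CPM in IQ3neg.

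The level of the 44 genes differed between pools of the same fraction as well. In IQ3pos, 39 of the 44 (88.6%) were higher in IQ3pos_1910A than in IQ3pos_1909A, against 52.8% of tested genes. In IQ3neg, 36 (81.8%) were higher in IQ3neg_1910B, against 61.7%. The median absolute log2 difference between the pools was 1.17 in IQ3pos and 1.11 in IQ3neg for the members, against 0.88 and 0.69 for all tested genes. With TMM-scaled CPM these medians were 1.46 and 1.08 for the members, against 0.89 and 0.68 for all tested genes.

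Single genes dropped out of single libraries. In IQ3neg_1909B, 8 members had no read (Cenpn, Cenpp, Cenpu, Dsn1, Bub1, Ttk, Ska3 and Sgo2a), against 5.97% of tested genes, and 16 (36.4%) were under 1 CPM, against 19.4%. All 8 had reads in IQ3neg_1910B, from 5 for Cenpn to 2436 for Bub1. In the other libraries no member lacked a read, against 3.46% of tested genes in IQ3pos_1909A, 2.73% in IQ3pos_1910A and 4.00% in IQ3neg_1910B. In IQ3pos_1909A, Cenpb, Cenpo, Cenpt, Mad1l1 and Ska3 were under 1 CPM (11.4%, against 25.6% of tested genes), while in IQ3pos_1910A these 5 stood between 9.19 and 60.8 CPM. No member was under 1 CPM in IQ3pos_1910A (0.00%, against 20.1%), and 2 were in IQ3neg_1910B, Cenpi and Cenpn (4.55%, against 13.5%). The part of depth and pool size in these counts was not tested.

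Taken pool by pool, 41 of the 44 (93.2%) were higher in IQ3pos than in IQ3neg in both pairs, against 50.6% of tested genes, and 37 (84.1%) after TMM scaling, against 35.6%. The 3 exceptions on CPM were Cenpb, Cenpo and Zwilch, each lower in IQ3pos in the 3-mouse pools and higher in the 4-mouse pools. The median difference of the members was 2.56 in the 3-mouse pools and 2.85 in the 4-mouse pools, which lay 1.84 and 2.28 above that of all tested genes.

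**Figure D4:**
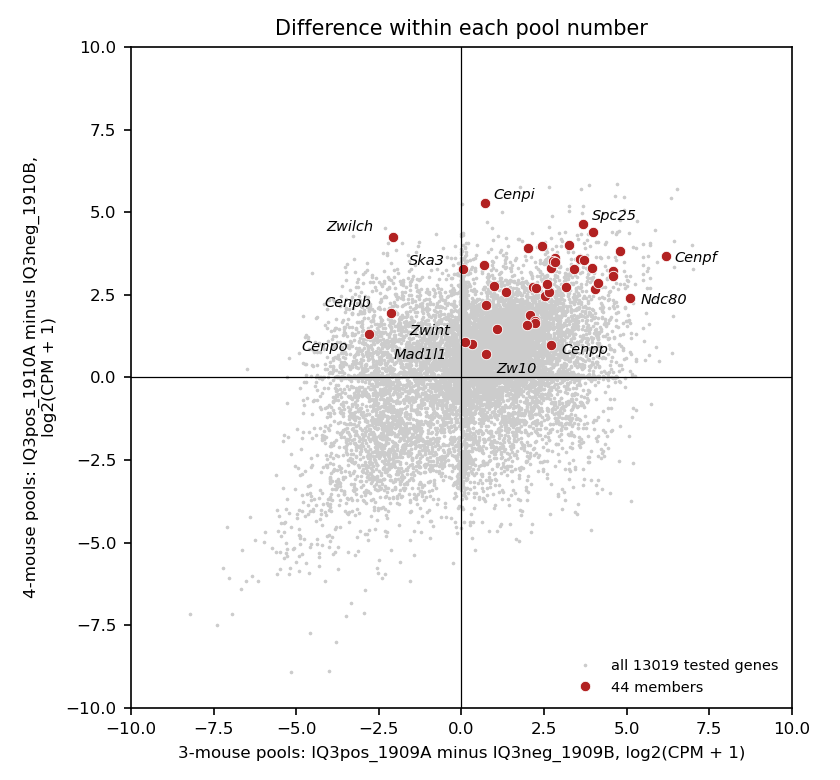
Difference between fractions within the 3-mouse pools (x axis) and within the 4-mouse pools (y axis), both in log2(CPM + 1); grey points are the 13019 tested genes and red points the 44 members, some of them named. Of the red points, 41 lie above 0 on both axes; Zwilch, Cenpb and Cenpo lie to the left of 0.

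Genes that work beside the members were counted in the same way. Of 15 other centromere and kinetochore genes, 10 were higher in both IQ3pos libraries (7 after TMM scaling) and 0 lower in both, against 40.9% of all genes higher (25.1% after TMM scaling). Their median difference was 1.52, or 0.84 above all genes, where the members lay 2.15 above. Clasp2, a microtubule plus end protein, stood at 142 and 65.5 against 132 and 70.2 CPM, and Cenpx, which binds beside CENP-T, at 78.6 and 113 against 42.2 and 47.6 CPM. Spag5, encoding the spindle and kinetochore protein astrin and chosen after its values were seen, had the largest difference of the list, 5.29 (SE 0.96, limma adjusted p = 0.0666), at 25.8 and 70.8 against 0.0174 and 0.239 CPM. Of 6 genes for the checkpoint's target and its silencing, 5 were higher in both. Among them, Cdc20, encoding the activator that the checkpoint holds in check, stood at 180 and 413 against 5.00 and 43.1 CPM, and Tpr, a nuclear pore gene, at 170 and 105 against 83.7 and 44.1 CPM. Of 6 genes of the chromosomal passenger complex with Plk1 and Haspin, 5 were higher in both, with a median difference of 3.73; Haspin was the exception, at 0.0441 and 22.1 CPM against no read and 2.25 CPM. Birc5 (survivin) stood at 197 and 348 against 16.5 and 35.3 CPM and Cdca8 (borealin) at 116 and 313 against 3.50 and 13.7 CPM. None of these 27 genes passed limma's or edgeR's adjusted threshold, and DESeq2 called Spag5 alone (adjusted p = 0.00217). At an unadjusted p under 0.05 in limma, 15 were higher and 0 lower, against 18.2% and 4.98% of all tested genes.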

How the data were processed

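The authors deposited CPM for 55335 gene symbols in 4 libraries. The submitters' processing notes name edgeR, STAR 2.7.1a, Subread 2.0.0 with featureCounts and the GRCm38/mm10 genome, without role or order. What the sources used here do not state is the annotation, the strand setting and the handling of multi-mapped reads. Each column sums to 1000000, and 100% of values above 0 lay within 0.05 of a whole read, so reads could be recovered. Members and lists were chosen with earlier results of these data known; the rule names all 44 members, gives library values for the most and least different in each group, and names 2 genes of highest mean CPM in each further list.

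Differences (IQ3pos minus IQ3neg) were tested by the limma-trend method in R 4.3.3 with limma 3.58.1. Its input was log2(CPM + 1) of genes whose mean reached 1 CPM. The test had no block and was two-sided, with Benjamini-Hochberg at 0.05 and 2 residual and 3.61 prior degrees of freedom. It was also run on simulated counts that had the same relative spread set for all genes. That run cannot speak to genes that dropped out of single libraries. Alternatives were other scalings, pseudocounts and filters, each library left out, a block, edgeR 4.0.16 (quasi-likelihood) and DESeq2 1.42.0 on the recovered reads. TMM was computed on all rows for the TMM-scaled CPM, and on its 16831 tested genes for the edgeR fit. Positions, transcript lengths (the principal coding transcript, which may differ from the one expressed) and exon overlaps are from GENCODE vM21 on GRCm38; promoters are RefSeq's. Exons of 5 members overlap another gene's by over 10%, which reads without strand cannot tell apart. Spc24, Nsl1, Ska1 and Zwilch had no window.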

Additional observations from a re-analysis of the deposited data

How the results depend on the processing

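The number of members higher in both IQ3pos libraries stayed between 30 and 38 under the scalings, pseudocounts, filters and tests tried. The share of all genes was 19.3% to 50.8%, against 40.9% as reported. With a library left out, the count is of members whose remaining IQ3pos values all lie above the remaining IQ3neg values. Under either scaling this count can only stay or rise, so it is no check of the result. It was 38 to 44, with 47.1% to 60.0% of all genes. With TMM-scaled CPM and a library left out, settings chosen after seeing the data, it was 31 to 43, with 33.3% to 47.8% of all genes. Their median above all genes was 2.55 with a pseudocount of 0.1, 1.43 with a pseudocount of 5, 2.81 without a filter and 1.57 in DESeq2, and 1.46 to 2.55 with a library left out (with TMM-scaled CPM, 2.61 without IQ3pos_1909A, 1.71 without IQ3neg_1909B and 1.56 without IQ3pos_1910A). Members past the adjusted threshold numbered 0, but 5 with a pseudocount of 5, 11 with a mean of at least 5 CPM (fewer genes tested), 1 in DESeq2 and 17 with the replicate block, and 0 with a library left out. Members higher at an unadjusted p under 0.05 numbered 27, but 15 without the 20 most abundant genes (5.08% of all genes), 3 in DESeq2 (4.31%), and 11 to 21 with a library left out (9.16% to 14.7%; with TMM-scaled CPM, 14 without IQ3pos_1909A, 3 without IQ3neg_1909B, 6 without IQ3pos_1910A and 8 without IQ3neg_1910B, beside 9.26%, 1.80%, 6.24% and 4.30% of all genes). Where not given, the cause was not tested.

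The fractions share library numbers, but no label says that they pair mice; deviations of same-numbered libraries correlated at 0.155 across genes. The block gave 17 adjusted calls, against 9.34% of all genes called higher, and 33 higher at an unadjusted p under 0.05, where 22.0% of all genes were.

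Of 611 single-gene values over 14 alternatives, 592 kept their direction. Cenpb turned to 0.29 (pseudocount 5), 0.57 (edgeR) and 0.47 (DESeq2). With a library left out, Cenpb ranged from −2.17 (without IQ3pos_1910A) to 1.99 (without IQ3pos_1909A), Cenpo from −2.39 to 0.89, Cenpt from −0.084 to 3.02, Ska3 from −1.28 to 4.62, Zwilch from −1.42 to 3.58 and Mad1l1 from −1.92 to 3.08, each lowest and highest without the same libraries as Cenpb; Mad1l1 was −1.44 without IQ3neg_1909B. Zwint turned to −0.026 (TMM), −0.13 (DESeq2 scaling), −0.31 (without the 20 most abundant genes), −0.14 (edgeR) and −0.12 (DESeq2), and Zw10 to −0.049 (DESeq2 scaling), −0.23 (without the 20 most abundant genes), −0.059 (edgeR) and −0.031 (DESeq2). The part of depth was not tested.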
